A study of Homo sapiens with 24 samples.

Results

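The genes described here are 44 genes that copy DNA or supply its building blocks, taken by name from a list of replication factors, out of the 48162 genes in each deposited table. Each of the 44 names was found on 1 row. RNA was sequenced from 2 immortalised human lines labelled as normal pancreas cells: hTERT-HPNE (HPNE), which carries the telomerase gene, and HPDE-H6c7 (HPDE), a duct epithelium line made with the E6 and E7 genes of a papillomavirus. Both were grown in keratinocyte medium in a 24-well plate and then held for 24 h under 1 of 4 treatments. These were fresh serum-free medium (untreated), residual medium that remained after vesicle isolation (the study's negative control), extracellular vesicles (EV) from PANC-1 cells, a pancreatic carcinoma line, and EV from PPCL-68 cells, which the design text counts among pancreas cancer cells, each at 1e10 vesicles per well. Each line and treatment had 3 libraries, called biological triplicates, and each line is a single immortalised line. The comparisons ask how vesicles of cancer cells changed replication genes in normal pancreas cells.

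A cell loads the MCM helicase onto replication origins in G1 phase, activates it with CDC45 and the GINS complex at the start of S phase, and copies both strands with a primase and several polymerases held on DNA by the PCNA clamp. Ribonucleotide reductase, thymidylate synthase and thymidine kinase supply the deoxynucleotides. Many of these genes are transcribed together before S phase by E2F factors, which the retinoblastoma protein restrains; papillomavirus E7 inactivates that protein, so the lines differ in this control.

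The stretches before the transcription start are shown for 5 members, because E2F factors read short letters there. Whether E2F factors took part in the differences below was not tested. RefSeq windows (build GRCh38.p14), 250 bases before to 50 after the start, matched 38 of the 44 members. Capitals mark the letters TTTCCCGC, TTTGGCGC, TTTCGCGC or TTTGCCGC on either strand, which may overlap one another. The sequences are the 200 bases before the start, 5′ to 3′ on the strand of the gene, for MCM6 (chr2:135876444-135876643, minus strand), E2F1 (chr20:33686386-33686585, minus strand), PCNA (chr20:5126623-5126822, minus strand), RRM2 (chr2:10122539-10122738, plus strand) and RFC1 (chr4:39366363-39366562, minus strand).
MCM6: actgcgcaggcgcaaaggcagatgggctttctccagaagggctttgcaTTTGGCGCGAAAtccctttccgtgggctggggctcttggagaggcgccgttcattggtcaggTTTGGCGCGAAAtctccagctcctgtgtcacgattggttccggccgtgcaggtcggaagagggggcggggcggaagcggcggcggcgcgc
E2F1: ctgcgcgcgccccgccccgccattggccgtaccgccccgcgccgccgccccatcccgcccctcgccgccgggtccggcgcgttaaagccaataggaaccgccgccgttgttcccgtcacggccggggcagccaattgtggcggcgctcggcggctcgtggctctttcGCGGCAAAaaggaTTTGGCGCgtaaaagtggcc
PCNA: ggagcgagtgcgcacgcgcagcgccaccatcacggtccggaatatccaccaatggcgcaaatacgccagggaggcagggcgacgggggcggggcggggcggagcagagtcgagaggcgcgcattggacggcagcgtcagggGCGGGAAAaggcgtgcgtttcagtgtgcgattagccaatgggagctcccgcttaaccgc
RRM2: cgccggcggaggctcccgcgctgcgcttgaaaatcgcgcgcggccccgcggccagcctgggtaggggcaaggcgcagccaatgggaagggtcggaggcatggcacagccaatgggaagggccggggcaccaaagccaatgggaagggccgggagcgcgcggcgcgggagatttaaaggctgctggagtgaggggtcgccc
RFC1: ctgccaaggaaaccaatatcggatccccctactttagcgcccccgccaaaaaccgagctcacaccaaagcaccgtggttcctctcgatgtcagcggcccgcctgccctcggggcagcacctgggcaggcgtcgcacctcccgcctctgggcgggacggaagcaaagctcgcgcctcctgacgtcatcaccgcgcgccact
MCM6 carried 4 matches, E2F1 carried 2 and PCNA carried 1, while the RRM2 and RFC1 stretches carried 0. Overlapping matches were counted apart: the 4 of MCM6 lie in 2 marked stretches. Of the 38 member windows, 21 (55.3%) held at least 1 match, against 3.33% of all 27305 RefSeq windows of the same length and 1 of 20 windows (5.0%) of mitosis genes. At least 2 matches stood in 5 member windows (13.2%), against 0.154% of all windows. In 1 of the 5, MCM2, the 2 matches overlap. Each gene had 1 window, and for 33 of the 38 the bases after the start were found in an annotated transcript of the gene. The CCAAT box letters were in 60.5% of member windows and 35.7% of all windows. TTTGAA, the letters of the CHR element known from mitosis genes, was in 1 member window (2.63%), 65.0% of mitosis windows and 15.4% of all windows. A match is a description of letters; binding was not measured.

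Deposited levels are in FPKM, reads per length of gene and per total of the library, so levels can be compared between genes. Each library held 29209142 to 46490312 reads on genes. The line markers stood where the labels put them: EPCAM, a surface protein of epithelium, was at 148 to 192 FPKM in HPDE and had at most 12 reads in an HPNE library, whereas VIM, a filament protein of mesenchymal cells, was at 149 to 539 FPKM in HPNE and 19.6 to 28.6 FPKM in HPDE. The leukocyte gene PTPRC had at most 6 reads in any library, and the acinar gene PRSS1 and the islet gene INS had 0. In HPDE the replicates of each group lay close together, with a root-mean-square log2 distance of 0.133 to 0.175 over genes. In HPNE each group held 1 close pair (0.138 to 0.164) and 1 library that stood apart (0.311 to 0.460): untreated 3, residual medium 3, PANC-1 EV 1 and PPCL-68 EV 1. Counts of members in HPNE are given with and without these 4 libraries, and single members where the call or the value moves. The pairs were picked for closeness in the same values that are tested, which makes the spread within a group small. Calls in the close pairs therefore do not measure the spread between replicates and are given as a description. The same holds where residual medium library 3 alone is left out.

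In untreated cells, every member was higher in HPDE than in HPNE. All 3 HPDE libraries lay above all 3 HPNE libraries for 44 of 44 members, as they did for 57.5% of the 13243 genes that passed the filter in either line. The ratio of the means ran from 2.06 for RPA1, a subunit of the protein that coats single-stranded DNA, to 16.2 for GINS1, a helicase cofactor, with a median of 6.03. PCNA was the most abundant member in each line, at a mean of 54.1 ± 5.69 FPKM (SD, n = 3) in HPNE and 225 ± 1.88 FPKM in HPDE. E2F2, an E2F transcription factor, was the lowest, at 0.150 and 1.79 FPKM. The line and its immortalising genes cannot be told apart. In bulk RNA, fewer cycling cells and less RNA per cell cannot be told apart either.

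**Figure D1:**
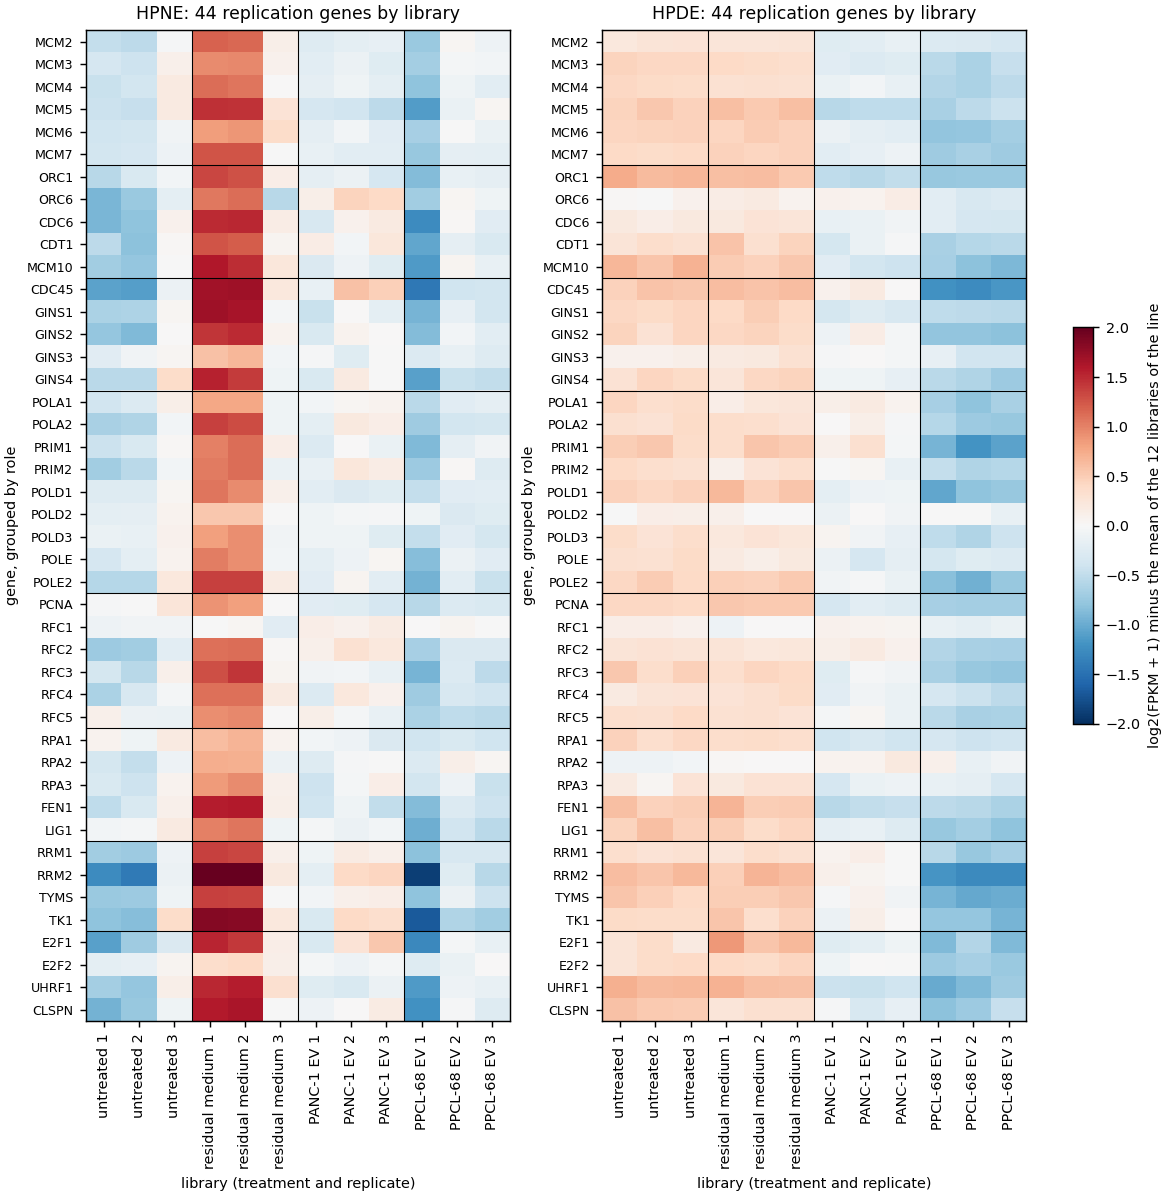
Heat map of log2(FPKM + 1) for the 44 members (rows, grouped by role) in each library (columns, by treatment and replicate), centred on the mean of the 12 libraries of each line; red is above and blue below that mean. HPNE residual medium libraries 1 and 2 form a red block over 43 members, and the 3 PPCL-68 EV libraries of HPDE are below the mean for nearly every row.

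In HPDE, nearly the whole set was lower under both kinds of vesicle than in residual medium. Under PPCL-68 EV 42 of 44 members fell and 0 rose, with a median log2 difference of -1.0, while 36.4% of all 12223 genes tested fell, 31.3% rose and the median over all genes was -0.03. Under PANC-1 EV 39 members fell and 1 rose, with a median of -0.46, beside 35.1% of all genes that fell, 28.2% that rose and a median of -0.04. A gene was called at an adjusted p under 0.05 in limma on log2(FPKM + 1). Ranks of differences below are on this scale, which shrinks those of low genes. All residual medium libraries lay above all PPCL-68 EV libraries for 43 members (37.3% of all genes), RPA2 excepted. They lay above all PANC-1 EV libraries for 40 (36.9% of all genes), the exceptions being ORC6, POLA1, RFC1 and RPA2. Mean levels were 18.5 to 96.9% of the residual medium mean under PPCL-68 EV (median 46.8%) and 42.7 to 107% under PANC-1 EV (median 69.9%). The residual medium libraries are shared by both comparisons.

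**Figure D2:**
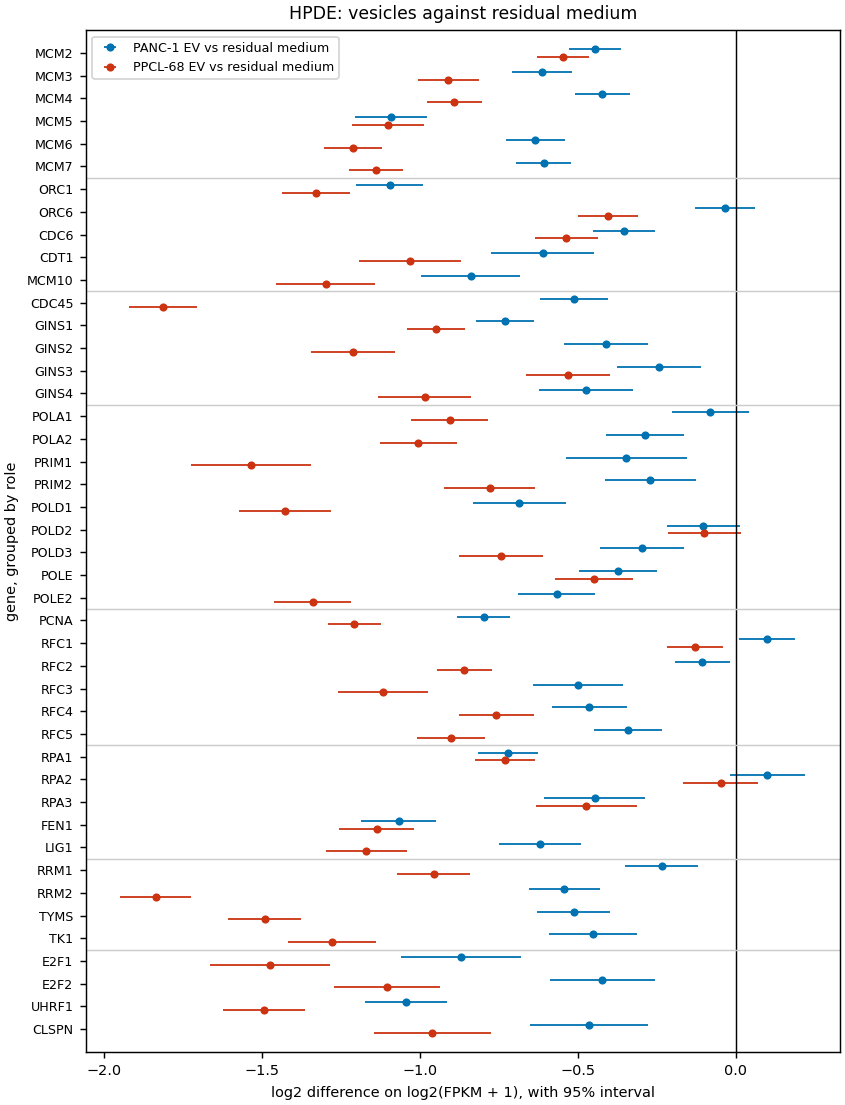
Log2 difference on log2(FPKM + 1) from residual medium in HPDE (horizontal axis, with 95% interval) for each of the 44 members (vertical axis, grouped by role), in blue for PANC-1 EV and red for PPCL-68 EV. RRM2 (-1.84) and CDC45 (-1.81) lie farthest left under PPCL-68 EV but at -0.54 and -0.51 under PANC-1 EV, whereas MCM5 lies at -1.09 and -1.10.

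The replicative helicase, the ring of MCM2 to MCM7 that unwinds DNA, fell in 6 of 6 genes under each vesicle kind. MCM2 was at 77.2, 77.4 and 77.7 FPKM in the residual medium libraries, 54.7, 56.3 and 58.9 under PANC-1 EV and 53.8, 53.1 and 51.3 under PPCL-68 EV. The 3 groups did not overlap, and the log2 differences were -0.45 ± 0.04 (SE, adjusted p = 2.37e-07) for PANC-1 EV and -0.55 ± 0.04 (adjusted p = 1.75e-08) for PPCL-68 EV, the smallest of the ring under the latter. MCM5 stood at 41.9, 39.6 and 41.9 FPKM in residual medium, 18.4, 18.9 and 19.0 under PANC-1 EV and 17.2, 18.7 and 20.1 under PPCL-68 EV. Its vesicle libraries overlapped each other and lay far below residual medium, at -1.09 ± 0.05 (adjusted p = 5.63e-10) and -1.10 ± 0.05 (adjusted p = 3.10e-10). MCM4 had the smallest difference of the ring under PANC-1 EV, -0.42, and MCM6 the largest under PPCL-68 EV, -1.21.

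Of the 5 origin licensing and firing genes, 5 fell under PPCL-68 EV and 4 under PANC-1 EV. ORC1, the largest subunit of the origin recognition complex, was at 13.2, 13.4 and 12.5 FPKM in residual medium, 5.62, 5.38 and 5.68 under PANC-1 EV and 4.57, 4.57 and 4.62 under PPCL-68 EV. No groups overlapped, and its -1.10 ± 0.05 under PANC-1 EV (adjusted p = 3.28e-10) was the lowest of the 44 members in that comparison, beside -1.33 ± 0.05 under PPCL-68 EV (adjusted p = 2.95e-11). ORC6, another subunit, overlapped residual medium (34.8, 35.7 and 33.1 FPKM) under PANC-1 EV (33.2, 33.0 and 34.9 FPKM). Its difference there was -0.03 (95% interval -0.13 to 0.06), whereas it fell by 0.40 on the log2 scale under PPCL-68 EV. CDC6, which loads the helicase, was at 34.5, 36.4 and 35.5 FPKM in residual medium, 26.9, 27.3 and 28.3 under PANC-1 EV and 25.7, 23.6 and 23.2 under PPCL-68 EV. CDT1, its loading partner, was at 31.1, 26.1 and 28.5 FPKM, 16.0, 18.8 and 20.3 and 12.8, 13.6 and 13.8 in the same order. Neither gene had a vesicle library within the residual medium range, with differences of -0.35 ± 0.05 and -0.54 ± 0.05 for CDC6 and -0.61 ± 0.08 and -1.03 ± 0.08 for CDT1 (largest adjusted p of the 4, 1.18e-05). MCM10, which acts when the loaded helicase fires, was at 7.02, 6.70 and 7.12 FPKM, 3.78, 3.34 and 3.21 and 2.53, 2.17 and 2.01, and fell by 0.84 and 1.30 on the log2 scale.

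The helicase activation genes, CDC45 and GINS1 to GINS4, fell in 5 of 5 cases under each vesicle kind. CDC45, which joins the helicase when an origin fires, was at 32.7, 31.8 and 32.7 FPKM in residual medium, 22.4, 23.9 and 21.1 under PANC-1 EV and 8.47, 8.19 and 8.86 under PPCL-68 EV. The 3 groups stood at 3 separate levels, with differences of -0.51 ± 0.05 (adjusted p = 8.28e-07) and -1.81 ± 0.05 (adjusted p = 2.45e-12). GINS2, of the GINS complex, was at 18.6, 19.1 and 18.1 FPKM, 12.7, 15.3 and 13.4 and 7.51, 7.55 and 7.35 in the same order. It too had no overlap, at -0.41 ± 0.06 and -1.21 ± 0.06. GINS1 had the largest difference of the group under PANC-1 EV, -0.73, and GINS3 the smallest under each, -0.24 and -0.53.

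Among the 9 polymerase and primase genes, 8 fell under PPCL-68 EV and 7 under PANC-1 EV. POLD1, the catalytic subunit of polymerase delta, was at 31.6, 27.5 and 29.6 FPKM in residual medium, 17.1, 18.4 and 18.5 under PANC-1 EV and 9.06, 10.9 and 11.2 under PPCL-68 EV. Each vesicle library lay below each control, with differences of -0.69 ± 0.07 (adjusted p = 9.23e-07) and -1.43 ± 0.07 (adjusted p = 3.04e-10). POLE2, a subunit of polymerase epsilon, was at 15.4, 15.3 and 16.1 FPKM, 10.2, 10.6 and 9.84 and 5.62, 5.09 and 6.01 in the same order, again without overlap (-0.57 ± 0.06 and -1.34 ± 0.06). PRIM1, the catalytic subunit of primase, had the largest difference of the group under PPCL-68 EV, -1.54 ± 0.09, but -0.35 ± 0.09 under PANC-1 EV. POLD2, an accessory subunit of polymerase delta, passed the test in neither comparison, at -0.10 (95% interval -0.22 to 0.01) and -0.10 (95% interval -0.21 to 0.02). POLA1, the catalytic subunit of polymerase alpha, was at -0.08 (95% interval -0.20 to 0.04) under PANC-1 EV and fell by 0.91 under PPCL-68 EV.

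PCNA, the sliding clamp, was at 247, 243 and 245 FPKM in residual medium, 134, 146 and 142 under PANC-1 EV and 106, 106 and 105 under PPCL-68 EV. The groups were far apart relative to their spread, with differences of -0.80 ± 0.04 (adjusted p = 6.89e-10) and -1.21 ± 0.04 (adjusted p = 7.92e-12), the largest of the clamp and its loader. All 5 clamp loader genes, RFC1 to RFC5, fell under PPCL-68 EV and 4 of them under PANC-1 EV. RFC1, the large subunit of the loader, was the 1 member called higher under PANC-1 EV, at 27.2, 26.7 and 26.6 FPKM against 23.8, 25.6 and 25.6 in residual medium. The groups did not overlap, and the difference was 0.10 ± 0.04 (adjusted p = 0.0489). That call was lost with a replicate block, by voom on recovered reads and in the fit of only the 6 libraries compared. It was also lost without PANC-1 EV library 1, 2 or 3 or residual medium library 1 or 3. The adjusted p in these fits was up to 0.182. Under PPCL-68 EV, RFC1 was at 23.0, 22.2 and 23.1 FPKM and fell by 0.13 (adjusted p = 0.0132, but 0.0504 to 0.0581 with size factors, without residual medium library 2 or 3 and without PPCL-68 EV library 2).

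Of the 5 single-strand binding and fragment joining genes, 4 fell under each vesicle kind. FEN1, the nuclease that trims Okazaki fragments, was at 61.6, 54.4 and 54.9 FPKM in residual medium, 25.7, 26.8 and 27.4 under PANC-1 EV and 26.2, 25.6 and 24.2 under PPCL-68 EV. Its vesicle groups overlapped each other, at 46.7% and 44.5% of the residual medium mean, with differences of -1.07 ± 0.06 (adjusted p = 1.10e-09) and -1.14 ± 0.06 (adjusted p = 3.59e-10). RPA1, the large subunit of the single-strand binding protein, was at 35.9, 36.2 and 35.4 FPKM, 20.9, 22.2 and 21.0 and 21.9, 20.6 and 21.1 in the same order, a fall of 0.72 and 0.73 on the log2 scale. RPA2, the middle subunit, did not pass the test. It was at 43.6, 43.3 and 43.1 FPKM in residual medium, 45.2, 45.3 and 49.3 under PANC-1 EV and 46.2, 38.9 and 40.9 under PPCL-68 EV, with differences of 0.10 (95% interval -0.02 to 0.22) and -0.05 (95% interval -0.17 to 0.07). RPA3, the small subunit, fell by 0.45 and 0.47, and LIG1, the ligase that seals the fragments, by 0.62 and 1.17, the latter the largest of the group.

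The 4 nucleotide supply genes fell under both vesicle kinds, with a median of -0.48 under PANC-1 EV and -1.39 under PPCL-68 EV. RRM2, the small subunit of ribonucleotide reductase, was at 95.4, 109 and 105 FPKM in residual medium, 72.9, 70.5 and 67.8 under PANC-1 EV and 29.4, 27.4 and 27.6 under PPCL-68 EV. No libraries of the 3 groups overlapped, and its -1.84 ± 0.05 under PPCL-68 EV (adjusted p = 2.78e-12) was the lowest of the 44 members on the log2(FPKM + 1) scale, beside -0.54 ± 0.05 under PANC-1 EV (adjusted p = 6.45e-07). In FPKM, RRM2 stood at 27.3% of residual medium, above CDC45 at 26.2% and E2F2 at 18.5%. RRM1, the large subunit, was at 69.7, 75.7 and 72.7 FPKM, 61.7, 64.5 and 58.7 and 39.9, 34.4 and 36.7, with the smallest differences of the group, -0.23 ± 0.05 and -0.96 ± 0.05. TYMS, thymidylate synthase, was at 24.6, 24.5 and 25.4 FPKM in residual medium, 16.9, 18.2 and 16.2 under PANC-1 EV and 8.53, 7.94 and 8.07 under PPCL-68 EV, which gave -0.51 ± 0.05 and -1.49 ± 0.05. TK1, the thymidine kinase of the salvage path, was at 126, 109 and 119 FPKM, 78.7, 92.8 and 86.6 and 49.8, 49.7 and 44.6 (-0.45 ± 0.07 and -1.28 ± 0.07). In each of these genes the 3 groups were separate. TYMS overlaps a gene on the other strand, 1 of 18 members that do so, and the library kit kept no strand, so reads of such pairs cannot be told apart.

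All 4 regulators fell under both vesicle kinds. E2F1, a factor that switches on S phase genes, was at 38.7, 31.1 and 33.3 FPKM in residual medium, 17.3, 17.9 and 19.6 under PANC-1 EV and 10.8, 13.5 and 10.9 under PPCL-68 EV. The groups did not overlap, at -0.87 ± 0.09 (adjusted p = 1.09e-06) and -1.48 ± 0.09 (adjusted p = 2.87e-09). UHRF1, which helps keep DNA methylation on new strands, was at 51.9, 48.4 and 47.9 FPKM, 23.4, 23.1 and 23.8 and 15.2, 16.7 and 18.9 in the same order. Its differences, -1.04 ± 0.06 and -1.49 ± 0.06, were the largest of the group on the log2(FPKM + 1) scale. CLSPN, an adaptor of the replication checkpoint, was at -0.46 and -0.96, and E2F2 at -0.42 and -1.10. E2F2 had means of 1.91, 1.17 and 0.354 FPKM, the last being 18.5% of residual medium, below UHRF1 at 34.3%, so the log2(FPKM + 1) scale understates its change.

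**Figure D3:**
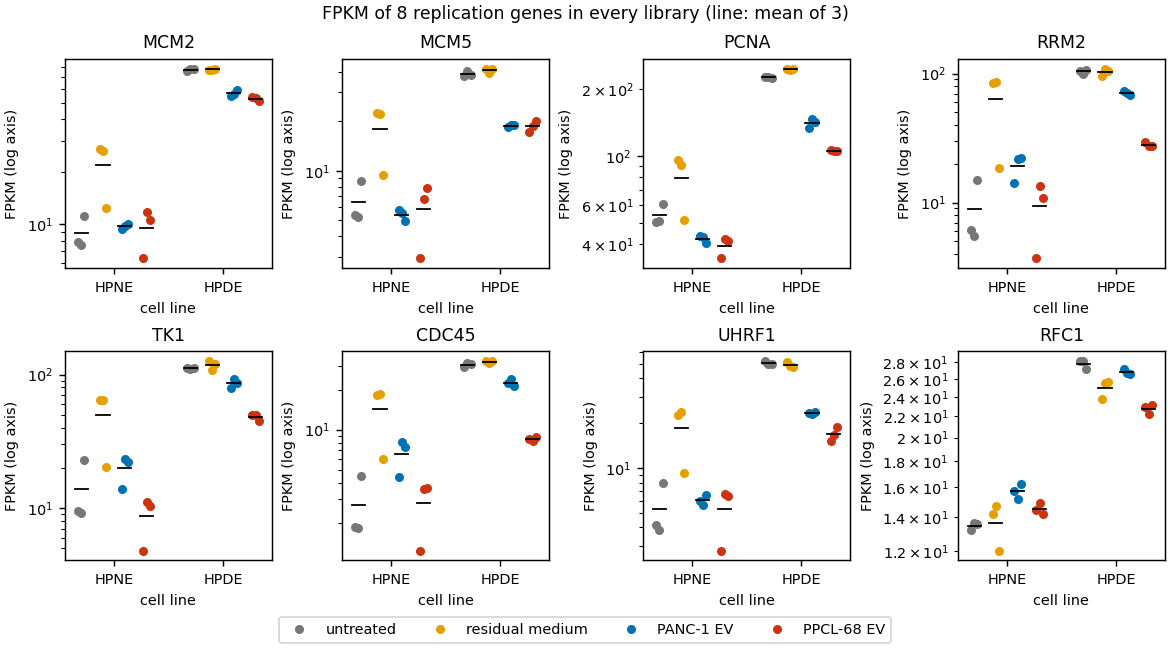
FPKM (log axis) of 8 members in every library of both lines, coloured by treatment; points are libraries and bars the mean of 3. In HPDE, RRM2 and CDC45 show 3 separate levels, MCM5 shows overlapping levels for both vesicle kinds, and RFC1 differs little between groups; in HPNE 2 of the 3 residual medium points stand above all others for each gene but RFC1.

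Set directly against each other in HPDE, the vesicle kinds differed for 38 of 44 members, each higher under PANC-1 EV, with a median of 0.48, while 25.2% of all genes were higher and 24.9% lower. All PANC-1 EV libraries lay above all PPCL-68 EV libraries for 37 members (28.1% of all genes). The gap was widest for CDC45 (1.30 ± 0.05, adjusted p = 4.45e-10), RRM2 (1.30 ± 0.05, adjusted p = 5.84e-10) and PRIM1 (1.19 ± 0.09), followed by TYMS (0.98 ± 0.05). By role, the median gap was 0.90 for nucleotide supply, 0.72 for polymerases and primase, 0.55 for the regulators, 0.51 for helicase activation, 0.49 for the clamp and its loader, 0.38 for the MCM ring, 0.37 for licensing and 0.07 for single-strand binding and joining. The 6 members that did not pass were MCM5 (0.01, 95% interval -0.10 to 0.12), RPA1 (0.01, -0.08 to 0.10), RPA3 (0.03, -0.13 to 0.19), FEN1 (0.07, -0.05 to 0.19), POLE (0.08, -0.05 to 0.20) and POLD2 (-0.00, -0.12 to 0.11). Of these, POLD2 was also not called against residual medium, while the other 5 were lower under both vesicle kinds. The members thus ranked differently under the vesicle kinds: ORC1, MCM5 and FEN1 were lowest under PANC-1 EV, and RRM2, CDC45 and PRIM1 under PPCL-68 EV.

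Residual medium left the set near its untreated level in HPDE. Of 44 members, 2 were higher and 3 lower than in untreated cells, with a median of 0.01, beside 9.93% of all genes higher and 10.1% lower. E2F1 was at 24.9, 27.0 and 23.7 FPKM untreated, below all of its residual medium libraries, and rose by 0.43 ± 0.09 (adjusted p = 0.00443). PCNA, at 226, 227 and 223 FPKM untreated, rose by 0.12 ± 0.04 (adjusted p = 0.0456). POLA1 (-0.18), POLE (-0.17) and RFC1 (-0.15) fell. Leaving out any 1 of the 6 libraries left 1 or 2 of these 5 calls. Against untreated cells, 40 members fell under PANC-1 EV and 1, RPA2, rose by 0.19 (34.4% of all genes fell and 26.3% rose). Under PPCL-68 EV 43 fell and 0 rose (36.1% of all genes fell and 30.1% rose). The members' medians were -0.46 and -1.02.

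In HPNE the set stood out in the residual medium group, and within that group in 2 of 3 libraries. On log2(FPKM + 1), which shrinks differences of low genes, the members' median difference from the untreated mean was taken and turned back into a ratio. This ratio was 2.95 and 2.97 times in residual medium libraries 1 and 2 and 1.28 times in library 3. It was 0.872, 0.894 and 1.26 times in the untreated libraries, 1.08, 1.17 and 1.18 times with PANC-1 EV, and 0.691, 1.09 and 1.06 times with PPCL-68 EV. Residual medium libraries 1 and 2 lay above the other 10 HPNE libraries for 43 of 44 members, all but RFC1, and for 21.6% of all genes. PPCL-68 EV library 1 was the lowest of the 12 for 36 members and for 8.15% of all genes. These 2 library counts were chosen after the values were seen. Both are over all 44 members, including ORC1 and E2F2. The shares are over genes with a mean of at least 1 FPKM in HPNE.

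**Figure D4:**
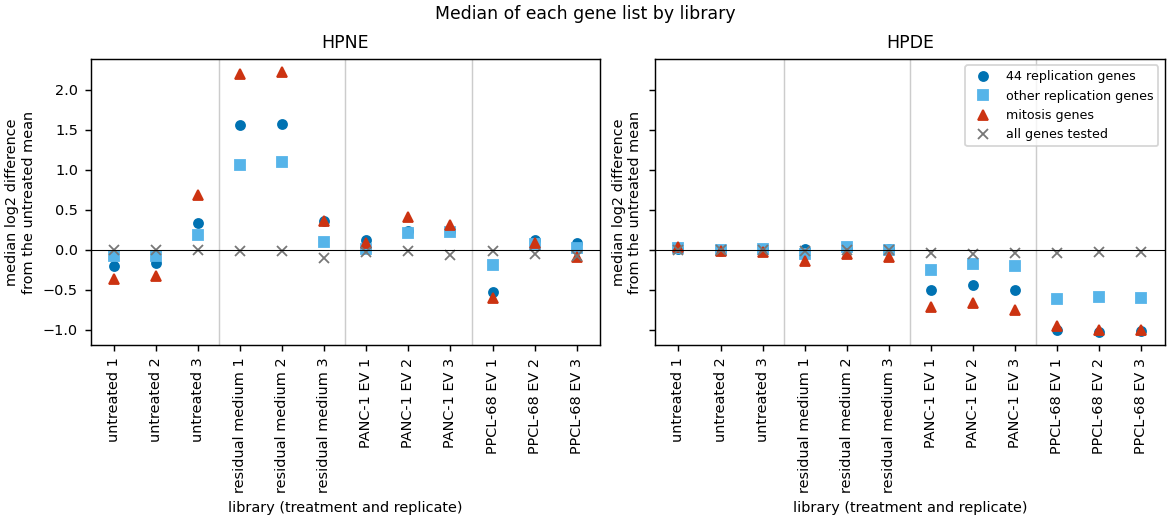
Median difference of log2(FPKM + 1) from the untreated mean (vertical axis) in each library (horizontal axis). The lists are the members (44 tested in HPDE, 43 in HPNE), other replication genes, mitosis genes and all genes tested. In HPNE, residual medium libraries 1 and 2 stand above 1.0 for all 3 gene lists while library 3 is at 0.35 for the members; in HPDE the vesicle libraries lie at -0.50 to -0.43 (PANC-1 EV) and -1.03 to -1.01 (PPCL-68 EV) for the members.

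Of the 44 members, 43 passed the filter of a mean of 1 FPKM over the HPNE libraries. E2F2, at a mean of 0.238 FPKM, did not, and ORC1 passed only through its residual medium libraries. Against untreated cells, 40 members were higher in residual medium and 0 lower, with a median of 1.15, beside 18.7% of all 11503 genes higher, 25.2% lower and a median of -0.05. Since ORC1 had to be high in residual medium to be tested at all, the count without it is 39 of 42. All residual medium libraries lay above all untreated libraries for 23 of the 44 (19.0% of all genes). That count includes E2F2 and ORC1, while the share is over genes that passed the filter. Without residual medium library 1, or without library 2, 19 members were called (10% and 9.76% of all genes higher). Without untreated library 1 or 2 the counts were 26 and 21 (10.5% and 10.1%). In the 8 libraries of the close pairs 42 members were higher, beside 35.4% of all genes higher and 36.2% lower. There residual medium libraries 1 and 2 deviated from their group opposite to untreated libraries 1 and 2 (correlations -0.392 and -0.393). That pattern and the treatment cannot be told apart in this fit. Library 3 of the same groups also deviated in opposite directions (correlation -0.513), and the fit of all 12 libraries has group as its only factor. The pattern is thus uneven between the groups there too, and its part in the counts above was not tested. By size factors in place of the library total, the split of all called genes moved from 2153 higher and 2899 lower to 3328 and 2083.

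The widest differences between HPNE residual medium and untreated cells were those of RRM2 and CDC45. RRM2 was at 84.5, 86.1 and 18.7 FPKM in residual medium and 6.18, 5.49 and 15 in untreated cells. Library 3 was thus above untreated library 3, and the difference was 2.54 ± 0.59 (adjusted p = 0.00666). CDC45 was at 18.2, 18.5 and 5.98 FPKM against 1.85, 1.82 and 4.52, a difference of 1.96 ± 0.43 (adjusted p = 0.00527), again with no overlap. TK1 was at 64.7, 64.2 and 20.5 FPKM against 9.56, 9.26 and 22.8, and here library 3 lay inside the untreated range (1.72 ± 0.47, adjusted p = 0.0139). TYMS was at 21.2, 20.8 and 7.50 FPKM against 4.14, 4.18 and 7.07 (1.42 ± 0.33), and RRM1 at 56.7, 55.1 and 22.8 against 12.7, 12.4 and 19.8 (1.44 ± 0.30). E2F1 was at 19.1, 17.7 and 6.67 FPKM against 2.30, 3.28 and 4.76 (1.72 ± 0.42), and UHRF1 at 22.6, 23.7 and 9.31 against 4.15, 3.85 and 8.01 (1.58 ± 0.37). In all 4 of these genes library 3 stood above the untreated range. In the close pairs the differences were larger, at 3.66 for RRM2, 2.77 for CDC45, 2.65 for TK1, 2.09 for TYMS, 2.07 for RRM1, 2.37 for E2F1 and 2.27 for UHRF1.

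The MCM ring rose in 6 of 6 genes, and so did the licensing genes ORC6, CDC6, CDT1 and MCM10. MCM5 was at 22.4, 22.3 and 9.35 FPKM in residual medium and 5.34, 5.24 and 8.69 untreated (1.29 ± 0.35, adjusted p = 0.0130). MCM2 was at 27.0, 26.3 and 12.4 FPKM against 7.90, 7.60 and 11.2 (1.15 ± 0.28). The MCM5 and TK1 calls were lost without residual medium library 1 or 2 and without untreated library 1 or 2, at adjusted p from 0.0501 to 0.0597. The CDC6 call was lost without residual medium library 1 (adjusted p = 0.0506) or 2 (0.0511), and that of CDT1 without untreated library 2 (0.0508). ORC1 was at 4.74, 4.49 and 1.51 FPKM against 0.552, 0.839 and 1.20, CDC6 at 17.1, 17.4 and 6.10 against 2.43, 2.70 and 5.80, CDT1 at 11, 10.7 and 4.20 against 2.5, 1.85 and 4.12, and MCM10 at 7.50, 6.81 and 2.26 against 0.732, 0.640 and 1.79. CDC6, CDT1 and MCM10 rose by 1.59, 1.28 and 1.59, through residual medium libraries 1 and 2 more than through library 3. The difference of ORC1, 1.22, is given as a description, because the gene passed the filter only through the group where it is high. GINS2 rose by 1.55, to 9.87, 10.4 and 3.26 FPKM from 1.38, 1.19 and 3.06. POLD1 was at 12.5, 11.4 and 5.87 FPKM against 4.37, 4.40 and 5.63 (0.86 ± 0.21), and POLE2 at 7.06, 7.06 and 2.48 against 1.10, 1.10 and 2.60 (1.28 ± 0.33), where library 3 fell inside the untreated range. FEN1 was at 41.1, 41.6 and 14.3 FPKM against 9, 10.4 and 14.1 (1.33 ± 0.34), and RPA1 at 27.0, 28.4 and 18.2 against 18.1, 16.2 and 19.8 (0.40 ± 0.14), where library 3 again fell inside the untreated range. The RPA1 call was lost with no filter, in the fit of only the 6 libraries compared and without untreated or residual medium library 1 or 2, at adjusted p from 0.0909 to 0.167. PCNA, at 96.2, 91.2 and 51.4 FPKM against 50.5, 51.0 and 60.6, did not pass (0.50, adjusted p = 0.0560). LIG1 (0.64, adjusted p = 0.0650) and RFC1 (0.01, 95% interval -0.16 to 0.18) did not pass either. PCNA passed with size factors (0.63, adjusted p = 0.0199). It also passed without residual medium library 3 (0.79) and in the close pairs (0.87), where the choice of libraries narrowed the spread. LIG1 passed in the same 3 fits, at 0.74, 1.01 and 1.09. RFC1 was at 14.2, 14.7 and 12 FPKM in residual medium and 13.2, 13.6 and 13.6 untreated.

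Against residual medium, 40 of 43 members in HPNE fell under PPCL-68 EV and 0 rose, with a median of -1.27, beside 19.7% of all genes lower and 20.3% higher. All residual medium libraries lay above all PPCL-68 EV libraries for 40 of 44 (22.0% of all genes), the exceptions being ORC6, PRIM2, RFC1 and RPA2. This count includes E2F2 and ORC1, while the share is over genes that passed the filter. Without ORC1, 39 of 42 members were called lower. Leaving out residual medium library 1 or 2 gave 30 and 31 calls (12% and 12.4% of all genes lower), and the close pairs gave 42 (37.3% lower and 28.2% higher). RRM2 was at 3.69, 13.5 and 10.8 FPKM under PPCL-68 EV and fell by 2.51 on the log2 scale with an SE of 0.59 (adjusted p = 0.00696), the largest fall of the 43. TK1 was at 4.80, 11.2 and 10.4 FPKM, below each residual medium library (-2.28 ± 0.47, adjusted p = 0.00361). CDC45 was at 1.23, 3.57 and 3.65 FPKM (-1.93 ± 0.43), FEN1 at 6.73, 10.7 and 9.60 (-1.61 ± 0.34) and POLD1 at 3.62, 4.47 and 4.54 (-1.01 ± 0.21). In these genes library 1 was the lowest of the 3. In the close pairs the differences were -2.72 for RRM2, -2.48 for TK1, -2.07 for CDC45, -1.93 for FEN1 and -1.23 for POLD1.

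Under PANC-1 EV, 21 of 43 members in HPNE were lower than in residual medium and 0 higher, with a median of -0.85, beside 10.3% of all genes lower and 13.9% higher. All residual medium libraries lay above all PANC-1 EV libraries for 20 of 44 (14.8% of all genes). E2F2 and ORC1 are within these 20, while the share is over genes that passed the filter. The count of calls moved widely with the libraries used. It was 2 without residual medium library 1 or without library 2 (4.08% and 4.10% of all genes lower), and 7, 7 and 8 without PANC-1 EV library 1, 2 and 3 (7.62%, 5.98% and 5.94%). It was 42 without residual medium library 3, beside 21.4% of all genes lower and 17.3% higher, and 42 in the close pairs, beside 30.8% lower and 28.2% higher. Without ORC1 the main count is 20 of 42. All 6 MCM genes passed, and MCM5, at 5.75, 5.54 and 4.93 FPKM, had the largest difference of the 43, -1.48 ± 0.35 (adjusted p = 0.0123). FEN1, at 9.69, 12.3 and 9.06 FPKM, also fell (-1.42 ± 0.34, adjusted p = 0.0132), as did UHRF1 at 5.99, 5.69 and 6.64 (-1.36 ± 0.37). All 3 calls were lost without residual medium library 1 or 2. That of FEN1 was also lost in the fit of only the 6 libraries compared, and that of UHRF1 with no filter and without PANC-1 EV library 1 or 2, at adjusted p up to 0.0921 over these fits. Among the 4 nucleotide supply genes, 0 passed, though all 4 were lower on average. RRM2 was at 14.1, 21.8 and 22.2 FPKM, overlapping residual medium library 3, and its difference of -1.40 had a 95% interval of -2.70 to -0.10 (adjusted p = 0.101). CDC45 at 4.42, 8.05 and 7.38 FPKM and E2F1 at 4.66, 7.51 and 9.16 FPKM overlapped it too (-0.89, adjusted p = 0.150, and -0.85, adjusted p = 0.149). In the close pairs the differences were -1.91 for RRM2, -1.46 for TK1, -1.25 for TYMS, -1.22 for RRM1, -1.15 for CDC45 and -1.06 for E2F1. All 6 were called there and without residual medium library 3 alone, where the choice of libraries narrowed the spread. RRM1 also passed with size factors (adjusted p = 0.0419). The residual medium libraries serve both vesicle comparisons. By size factors, the split of all called genes for PANC-1 EV moved from 1599 higher and 1185 lower to 1341 and 1849.

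Against untreated HPNE cells the vesicles left few calls. Under PANC-1 EV, limma called 0 of 43 members (4 higher and 0 lower at an unadjusted p under 0.05, and 0 by voom on recovered reads), with a median of 0.19, while 9.61% of all genes were higher and 11.5% lower. Shares of all genes in this paragraph are at an adjusted p under 0.05 in limma. None is given at the unadjusted threshold or by voom, so those member counts cannot be set against all genes. Under PPCL-68 EV, 1 member was called, RPA1, lower by 0.42 with an SE of 0.14 (adjusted p = 0.0373), with a median of -0.09 beside 18.7% of all genes higher and 23.8% lower. RPA1 was at 18.1, 16.2 and 19.8 FPKM untreated and 12.9, 13.8 and 12.9 under PPCL-68 EV, with no overlap, but the call was lost with no filter, with size factors and on leaving out untreated library 1 or 3 or any 1 PPCL-68 EV library. Between the vesicle kinds 0 members were called (4 higher and 0 lower under PANC-1 EV at an unadjusted p under 0.05, and 0 by voom), with a median of 0.30, beside 3.22% of all genes higher and 2.25% lower. For RRM2 the difference from untreated under PANC-1 EV was 1.14 (95% interval -0.16 to 2.44), and the gap between the vesicle kinds was 1.11 (95% interval -0.19 to 2.40). In the 8 libraries of the close pairs, 33 members were higher and 1 lower under PANC-1 EV than untreated, 25 higher and 4 lower under PPCL-68 EV, and 17 higher and 1 lower under PANC-1 EV than under PPCL-68 EV. The shares of all genes in that fit were also larger, at 29.3% higher and 33.4% lower, 30.9% higher and 38.6% lower, and 22.6% higher and 13.8% lower. Of the 25 members higher under PPCL-68 EV, 10 had been below untreated in the 12 libraries, none of them called. The untreated pair and the vesicle pairs also lie on unlike sides of a pattern shared by the groups. Untreated library 3, left out, deviated like PANC-1 EV 3 (correlation 0.490) and PPCL-68 EV 3 (0.493), which were kept. Untreated library 1, kept, deviated like library 1 of each vesicle kind (0.480 and 0.492), which were left out. In that fit the pattern and the treatment cannot be told apart. By size factors, the split of all called genes against untreated became 1509 higher and 1079 lower in place of 1105 and 1325 for PANC-1 EV, and 2826 and 2296 in place of 2151 and 2740 for PPCL-68 EV.

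The difference between the lines was tested as such over all 24 libraries, for 10483 genes and 43 members. That fit shares its estimate of spread over both lines. HPNE replicates lay farther apart (log2 distance up to 0.460) than those of HPDE (up to 0.175), and the p-values do not allow for this. The response to residual medium differed for 40 members, each lower in HPDE than in HPNE, with a median of -1.15, beside 18.7% of all genes lower and 19.4% higher. It was widest for RRM2 (-2.55 ± 0.63, adjusted p = 0.00446), CLSPN (-1.92 ± 0.46, adjusted p = 0.00377) and CDC45 (-1.88 ± 0.46, adjusted p = 0.00439). Without ORC1 the count is 39 of 42. Leaving out HPNE residual medium library 1 or 2 gave 27 and 26 members (13.2% and 12.6% of all genes lower). The response to PANC-1 EV against residual medium differed for 0 members (1 higher and 0 lower at an unadjusted p under 0.05, and 1 by voom), beside 7.51% of all genes higher and 10.7% lower in HPDE. These shares are at an adjusted p under 0.05, and none is given for the unadjusted and voom counts. For PPCL-68 EV the response differed for 1, POLD2 (0.47 ± 0.15, adjusted p = 0.0326), beside 11.4% higher and 11.6% lower. In the close pairs these counts were 40 and 33, with 34 and 26 when HPNE residual medium library 3 alone was left out, so the count depended on that library. The shares of all genes grew too. For PANC-1 EV they were 25.3% (higher) and 21.4% (lower) in the close pairs and 18.9% and 14.6% without library 3 alone. For PPCL-68 EV they were 27.6% and 17.4%, and 20.1% and 13.5%. For residual medium against untreated the close pairs gave 43 members lower, beside 35% of all genes lower and 29.5% higher. The pattern shared by the HPNE groups cannot be told apart from the treatment there either. In the fit of all 24 libraries that pattern is also uneven between HPNE residual medium and untreated cells, and its part was not tested. POLD2 itself lost its call with no filter, in the fit of only the 12 libraries compared, and without residual medium library 1 or 2 or PPCL-68 EV library 2 or 3 of HPNE, or residual medium library 2 or 3 or PPCL-68 EV library 1 or 2 of HPDE. Its adjusted p in these fits was 0.0616 to 0.0981. With size factors, the split of all called genes became 1134 higher and 904 lower in place of 787 and 1121 for PANC-1 EV, and 1707 and 2661 in place of 2038 and 1957 for residual medium.

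Other genes of the pathway were followed from 3 further lists. Of 45 other replication genes (origin subunits, kinases of origin firing, chromatin assembly, nucleotide enzymes and cyclins of S phase), 44 were tested in HPDE: 28 fell and 8 rose under PANC-1 EV (median -0.27), and 35 fell and 3 rose under PPCL-68 EV (median -0.55). Beside these, 35.1% of all genes fell and 28.2% rose under PANC-1 EV, and 36.4% fell and 31.3% rose under PPCL-68 EV. In HPNE, 28 of 42 were higher and 2 lower in residual medium than untreated (median 0.71), beside 18.7% of all genes higher and 25.2% lower. Of 24 mitosis genes, 23 fell under PANC-1 EV and 24 under PPCL-68 EV in HPDE (medians -0.57 and -0.88), and 24 were higher in residual medium than untreated in HPNE (median 1.58). Between the vesicle kinds in HPDE, 16 mitosis genes were higher and 0 lower under PANC-1 EV, with a median of 0.22, where that of the 44 members was 0.48 and 25.2% of all genes were higher. The lists were not tested against each other. In HPNE their counts are from all 12 libraries, and fits with libraries left out are not given for them.

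Inhibitors of the step from G1 to S phase were followed beside the members, and their part in the result was not tested. CDKN1A, the p21 inhibitor, was at 52.0 ± 1.37 FPKM untreated in HPDE, 75.0 ± 2.51 in residual medium, 117 ± 2.16 under PANC-1 EV and 132 ± 6.19 under PPCL-68 EV. It rose over residual medium by 0.64 ± 0.04 (adjusted p = 2.15e-08) and 0.81 ± 0.04 (adjusted p = 9.49e-10). It also rose from untreated to residual medium (0.52 ± 0.04), where the members' median was 0.01. CDKN1C, the p57 inhibitor, rose from 1.83 ± 0.353 FPKM in residual medium to 3.02 ± 0.336 and 6.81 ± 0.380, by 0.51 and 1.47. CDKN1B, the p27 inhibitor, rose by 0.33 and 0.39. CDKN2C, the p18 inhibitor, fell by 0.95 and 1.12. CDKN2A, which encodes the p16 inhibitor, fell by 0.28 and 0.43. CDKN2D, the p19 inhibitor, fell under PANC-1 EV (-0.29), where RB1 (0.26) and RBL1 (0.18) rose, and RBL1 (-0.27) and RBL2 (-0.22) fell under PPCL-68 EV. Of the 10 inhibitors and pocket proteins listed, 5 rose and 3 fell under PANC-1 EV, and 3 rose and 4 fell under PPCL-68 EV. Of all genes, 28.2% rose and 35.1% fell under PANC-1 EV, and 31.3% rose and 36.4% fell under PPCL-68 EV. In HPNE residual medium, CDKN1A (-0.37), CDKN1B (-0.57), CDKN1C (-1.26), CDKN2A (-0.96), CDKN2B (-1.54) and RBL2 (-0.72) were lower than untreated and CDKN2C (0.95), RB1 (0.69) and RBL1 (1.09) higher. Of all genes, 18.7% were higher and 25.2% lower there. For CDKN2C the lowest residual medium library (6.82 FPKM) lay inside the untreated range (up to 6.83). For RBL1 it did too (3.04 FPKM, untreated up to 3.12). The groups did not overlap for the other genes named. Fits with libraries left out are not given for these inhibitors and pocket proteins. Against HPNE residual medium, 1 of the 10 rose and 2 fell under PANC-1 EV (13.9% and 10.3% of all genes). Under PPCL-68 EV 2 rose and 3 fell (20.3% and 19.7%).

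Promoter letters and response can be set side by side. In HPDE under PPCL-68 EV, the 21 members with an E2F match had a median of -1.10 and the 17 without one -0.96. Under PANC-1 EV the medians were -0.51 and -0.45, and for HPNE residual medium against untreated 1.23 (20 members tested) and 1.15. RRM2, with 0 matches in the printed stretch, had the largest difference on the log2(FPKM + 1) scale in HPDE under PPCL-68 EV, while RFC1, also with 0, had among the smallest. The ranges of both sets overlapped, and no test was made.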

How the data were processed

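Total RNA of 24 libraries (8 groups of 3) was sequenced after a non-directional kit. The authors deposited FPKM per gene, 1 table per library, and the submitters' processing notes name CASAVA, STAR, HTSeq, DESeq2 and build hg19, with no versions or settings. Whole reads were recovered from the deposited FPKM and gene lengths (100% of values whole within 0.05), 29209142 to 46490312 per library. FPKM were tested as log2(FPKM + 1) with limma 3.58.1 (R 4.3.3) on all 12 libraries of a line, or all 24 for the difference between lines, for genes with a mean of at least 1 FPKM, with Benjamini-Hochberg adjustment over all genes and a threshold of 0.05. Fits were tested on simulated reads with the same spread in both lines and no library that stood apart. That check does not cover the pattern of the HPNE libraries. Other steps used Python 3.11.15 and pandas 2.3.3. The members, lists and tests were chosen with earlier results of these data known. A set of 20 members spread over the roles was given in every library; others are named where called against most members, under the filter, at the extremes of a role, or among the 3 largest differences between the lines. Members that did not pass a test were named after their values were seen. Same-numbered libraries deviated together for PANC-1 EV with PPCL-68 EV in HPNE (correlations 0.292 to 0.565) and in no other comparison in all 3 pairs, and no label says what a number marks. Alternatives were a pseudocount of 0.1, no filter, size factors, a replicate block, voom on recovered reads, only the libraries compared, each library left out, and the 8 HPNE libraries of the close pairs. The p-values measure the spread between triplicates whose separate cultures are not described further. In the close pairs they do not, because the pairs were picked for closeness.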

Additional observations from a re-analysis of the deposited data

Results flagged for a closer look

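The difference between the lines was tested as such. For residual medium against untreated 40 of 43 members passed, each lower in HPDE, beside 18.7% of all genes lower and 19.4% higher. Without ORC1 the count is 39 of 42. Fewer passed without HPNE residual medium library 1 or 2, beside 13.2% and 12.6% of all genes lower. For the 3 widest members the HPDE minus HPNE log2 difference was -2.55 ± 0.63 (SE) for RRM2 (adjusted p = 0.00446), -1.92 ± 0.46 for CLSPN (adjusted p = 0.00377) and -1.88 ± 0.46 for CDC45 (adjusted p = 0.00439), by limma over 24 libraries. For PPCL-68 EV against residual medium 1 member passed, at 0.47 ± 0.15 for POLD2 (adjusted p = 0.0326), beside 11.4% of all genes higher and 11.6% lower. The POLD2 call was lost in several other fits, such as with no filter (adjusted p = 0.0667) and from only the 12 libraries compared (0.0981).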

How the results depend on the processing

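Deviations of same-numbered libraries correlated at -0.246 to 0.150 in HPDE (over 0.1 in 1 of 18 pairs). In HPNE they correlated at -0.513 to 0.565 (9 of 18), in either direction. The HPNE groups thus shared a pattern that the replicate numbers do not follow, and a block by number does not remove it. Only for PANC-1 EV with PPCL-68 EV in HPNE were all 3 pairs over 0.1, and library 1 of each group stood apart. The block left 0 members called there, as without it. Elsewhere, with the replicate block, 2 members in place of 5 were called in HPDE for residual medium against untreated, and 16 in place of 21 in HPNE for PANC-1 EV against residual medium; RFC1 under PANC-1 EV in HPDE was not called (adjusted p = 0.0812). In HPDE, leaving out 1 library gave 38 to 40 calls (PANC-1 EV) and 41 to 43 (PPCL-68 EV) against residual medium, 36 to 38 between the vesicle kinds, and 1 to 2 for residual medium against untreated, where no filter gave 2 and size factors 3. In HPNE, PANC-1 EV against residual medium gave 6 calls with no filter and 4 from only the 6 libraries. The close pairs gave 42, beside 30.8% of all genes lower and 28.2% higher. With 1 library left out the count was 2 (4.08% and 4.10% of all genes lower) to 42 (21.4% lower). Residual medium against untreated gave 19 (10% and 9.76% of all genes higher) to 42 with 1 left out. PANC-1 EV against untreated gave 2 with size factors, 4 from only the 6 libraries and 0 to 1 with 1 left out. The close pairs gave 34, beside 29.3% of all genes higher and 33.4% lower. PPCL-68 EV against untreated gave 2 with a pseudocount of 0.1, 0 with no filter and 0 with size factors. It gave 4 from only the 6 libraries and 0 to 1 with 1 left out. The close pairs gave 29, beside 30.9% of all genes higher and 38.6% lower. Between the vesicle kinds, only the 6 libraries gave 1. The close pairs gave 18, beside 22.6% of all genes higher and 13.8% lower. For the difference between the lines, PANC-1 EV against residual medium gave 1 with size factors and 1 by voom. The close pairs gave 40, beside 25.3% of all genes higher and 21.4% lower. With 1 left out the count was 0 to 34 (18.9% higher and 14.6% lower for the 34). PPCL-68 EV gave 2 by voom and 0 from only the 12 libraries. The close pairs gave 33, beside 27.6% of all genes higher and 17.4% lower. With 1 left out the count was 0 to 26 (20.1% higher and 13.5% lower for the 26). Residual medium against untreated gave 26 (12.6% of all genes lower) to 43. The cause was not tested, except that fewer libraries enter the last settings and the close pairs were picked for a small spread. Where no share of all genes stands beside a count, the count shows only how calls moved with the setting. Such a count is not a result about the members. Over all members and comparisons, 12 of 209 calls in HPDE, 52 of 102 in HPNE and 17 of 41 between the lines were lost under at least 1 alternative, and no called value changed sign. For PPCL-68 EV against untreated in HPNE, 10 members that were lower but not called were called higher in the close pairs: POLA2 (0.27), UHRF1 (0.61), MCM5 (0.39), GINS1 (0.36), MCM4 (0.26), MCM3 (0.33), MCM7 (0.16), CDT1 (0.43), TK1 (0.18) and PRIM1 (0.25). Those pairs lie on unlike sides of the shared pattern, which cannot be told apart from the treatment there. Size factors also turned the split of all called genes in HPDE against untreated, from 3214 higher and 4199 lower to 3706 and 3566 for PANC-1 EV and from 3684 and 4416 to 4073 and 3952 for PPCL-68 EV, and between the lines for PPCL-68 EV from 1190 and 1220 to 1497 and 1088. E2F2 was under the filter in HPNE, so it was not tested there.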
